A study of Mus musculus with 18 samples.

Results

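The genes described here were 10 members of the matrix-degrading system of the mouse liver: the matrix metalloproteinases Mmp2, Mmp9, Mmp12, Mmp13, Mmp14, Mmp15 and Mmp19, and the tissue inhibitors of metalloproteinases Timp1, Timp2 and Timp3. They were taken by symbol from a table of 54532 genes, and all 10 were found. Livers came from 18 C57BL/6 mice (C57BL/6J in the study's methods) in 3 groups of 6, males that were 6 weeks old at the start by those methods and were fasted overnight before sacrifice. The NC group ate chow. The HFD group ate a high-fat diet for 14 weeks and then stayed on it while receiving saline. The SZ-A group ate the same high-fat diet and was then given SZ-A, the alkaloids of mulberry twig (Ramulus Mori), while staying on the diet. The dose and route given to these SZ-A mice were not stated, and their treatment lasted 8 weeks by the series description and 6 weeks by the study's methods. In the NC group, the diet field of mouse NC6 says high-fat diet while its title names chow. It was kept in NC by its title, and results that change without it are given as such.

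Matrix metalloproteinases are zinc-dependent endopeptidases that cut collagens, elastin, laminins and other proteins outside the cell. Most are secreted as inactive proenzymes, while Mmp14 and Mmp15 encode membrane-bound members of the family. TIMPs bind the active site and block it, and TIMP2 also takes part in the activation of proMMP2 at the cell surface together with MMP14. In the liver, stellate cells, myofibroblasts and macrophages are the best known sources of these proteins, and the balance between proteases and TIMPs is studied in fibrosis and its regression.

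Poly-A RNA was sequenced from each liver, with 17163191 to 20493907 fragments on genes per mouse. The values are FPKM, fragments counted per length of gene and per size of the library, so levels may be compared between genes. The library size used in the FPKM was not the number of fragments on genes. Its ratio to that number ran from 0.9325 to 1.0248 in NC and from 0.9718 to 1.0468 in SZ-A. In HFD it was 0.9983 in HFD5 and ran from 1.0792 to 1.1414 in the other mice. Gene positions are on GRCm38, as in the deposited table; all 10 genes are protein-coding, and all but Timp2 lie on the plus strand. The tissue label was checked on hepatocytes: 8 hepatocyte markers summed to between 23846 and 57831 FPKM in every mouse. A few mice stood apart. HFD5 was the lowest HFD mouse in 7 of the 10 members, HFD1 was the highest in 6, and NC5 was the lowest or tied lowest NC mouse in 7. SZ-A2 was the highest SZ-A mouse in 5 members and SZ-A4 the lowest in 4. Nothing in the labels says whether mice shared cages or preparation days, so p-values measure the spread between these mice.

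The promoters of Mmp13, Mmp12 and Timp1 are shown because these genes, nearly silent in NC livers, differed most between HFD and NC. Each covers 250 bases before to 50 bases after a RefSeq start on GRCm38.p6. Mmp13 lies on chr9:7272264-7272563, plus strand. For Mmp12 the downstream of its 2 RefSeq starts is shown, on chr9:7347124-7347423, plus strand, inside the annotated gene. Timp1 lies on chrX:20869916-20870215, plus strand. Capitals mark the letters TGANTCA, the core of the site bound by AP-1 (Fos and Jun proteins), and AGGAAG, a core read by ETS factors.
Mmp13: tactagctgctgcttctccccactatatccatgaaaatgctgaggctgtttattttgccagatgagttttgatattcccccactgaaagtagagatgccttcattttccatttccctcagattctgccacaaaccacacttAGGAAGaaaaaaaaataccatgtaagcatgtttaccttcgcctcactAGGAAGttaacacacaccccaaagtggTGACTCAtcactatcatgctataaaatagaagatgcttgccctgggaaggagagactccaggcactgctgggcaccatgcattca
Mmp12: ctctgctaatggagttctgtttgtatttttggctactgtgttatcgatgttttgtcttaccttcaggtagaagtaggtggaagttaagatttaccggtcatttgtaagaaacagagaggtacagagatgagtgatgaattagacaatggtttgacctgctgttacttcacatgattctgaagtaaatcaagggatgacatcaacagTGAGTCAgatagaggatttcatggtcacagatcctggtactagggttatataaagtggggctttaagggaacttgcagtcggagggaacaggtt
Timp1: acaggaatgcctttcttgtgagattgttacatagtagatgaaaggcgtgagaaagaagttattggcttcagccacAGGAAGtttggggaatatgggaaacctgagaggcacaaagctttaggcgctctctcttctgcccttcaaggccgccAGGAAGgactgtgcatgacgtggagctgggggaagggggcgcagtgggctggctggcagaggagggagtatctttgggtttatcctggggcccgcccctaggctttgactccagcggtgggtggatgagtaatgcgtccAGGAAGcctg

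Promoters of 7 of the 10 members, 8 in all, were in the RefSeq table used here; those of Mmp2, Mmp9 and Mmp19 were not used. The AP-1 letters, searched on both strands, stood 35 bases before the Mmp13 start and 44 bases before the Mmp12 start shown. They were in 2 of the 8 member promoters and in 7.81% of all 32851 promoters of this length. The ETS letters, searched on both strands, stood 109 and 62 bases before the Mmp13 start. In the Timp1 promoter they stood 175 and 99 bases before and 41 bases after the start. They were in 5 of the 8 member promoters and in 35.4% of all promoters. The TATA letters TATAAA, left in lower case above and searched on both strands, began 16 bases before the Mmp13 start and 5 bases after the Mmp12 start shown. They were in 2 of the 8 member promoters and in 13.6% of all. The upstream Mmp12 promoter, on chr9:7344147-7344446 and not shown, held neither the AP-1 nor the TATA letters. Its ETS letters stood 87 bases before that start. These matches describe the sequence only.

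Mmp19 had the highest mean of the 10 genes in every group, with NC at 10.5 ± 1.24 FPKM (SD, n = 6), HFD at 16.0 ± 1.85 and SZ-A at 14.1 ± 1.07. Mmp19 encodes a secreted protease that cuts basement membrane proteins. In NC its range overlapped that of Mmp14, and in NC5 Mmp14 (9.77 FPKM) was above Mmp19 (7.97). Mmp15 and Timp2 followed, with ranges that overlapped from each gene to the next. Timp3 and Mmp2 came next, each without overlap with its neighbours. Mmp9, Mmp12, Timp1 and Mmp13 closed the order, and neighbours among these 4 overlapped.

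In HFD livers the order differed: Mmp15 stood in the second place and Mmp14 in the fourth, behind Timp2, and the ranges of neighbours among these 3 overlapped. Mmp12 was sixth at 2.46 ± 1.35 FPKM, within the range of Timp3 above it and Mmp2 below it. The 7 proteases together reached 26.1 ± 2.69 FPKM in chow livers, 37.0 ± 4.87 in HFD livers and 31.9 ± 2.20 in treated livers. Mmp14 made up 35.1% ± 6.52 of this sum in NC. Its share was 16.6% ± 3.19 in HFD, and 21.5% ± 4.24 in SZ-A livers. The 3 TIMPs together reached 7.67 ± 1.79 FPKM with chow, 10.5 ± 2.67 with the high-fat diet and 7.81 ± 0.906 with SZ-A. Timp2, the most abundant inhibitor, held 67.4% ± 4.87, 63.1% ± 3.35 and 67.1% ± 4.07 of the TIMP sum in NC, HFD and SZ-A.

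**Figure D1:**
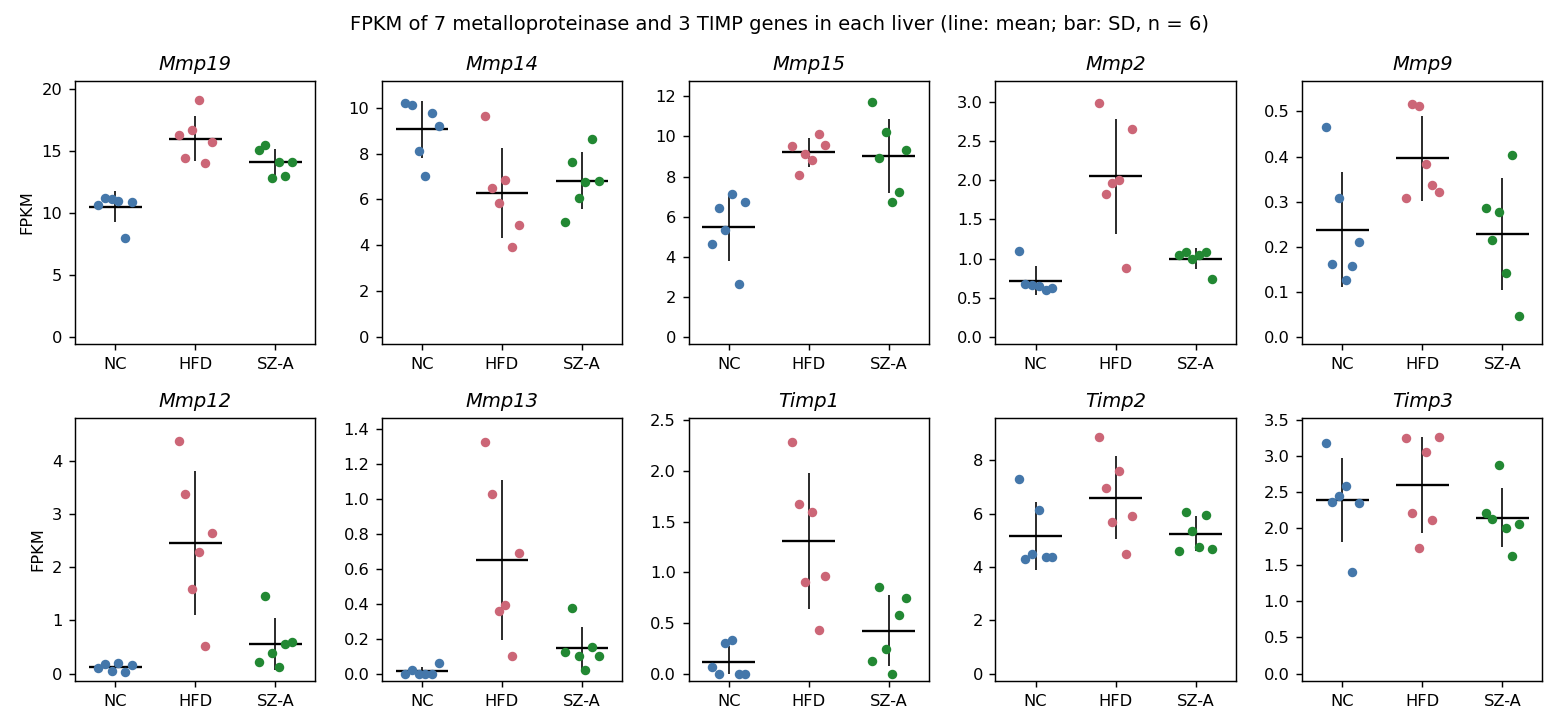
FPKM (vertical axes, linear from 0) of the 10 genes in each mouse of the NC, HFD and SZ-A groups, with the group mean as a line and the SD as a bar (n = 6). All HFD mice lie above all NC mice for Mmp12, Mmp13, Mmp15, Mmp19 and Timp1, and the lowest HFD point for Mmp2, Mmp12, Mmp13 and Timp1 is the same mouse, HFD5.

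The comparison of HFD with NC asks what the high-fat diet did to these genes. Mmp12, Mmp2, Mmp15 and Mmp19 rose in HFD livers and Mmp14 fell. Among the 3 genes under the expression filter, Timp1 and Mmp13 rose as well. Timp2, Timp3 and Mmp9 did not pass the test. The test was limma on log2(FPKM + 0.1), with Benjamini-Hochberg adjustment over 10216 genes of mean FPKM at least 1. Calls needed both an adjusted p under 0.05 and more than a 1.2-fold difference. By this rule 5 of the 7 members tested were called, 4 higher and 1 lower, and 20.2% of all genes tested were called, 10.7% higher and 9.49% lower. Of these 5, Mmp2 and Mmp12 reached the filter only because HFD livers were high, so the count is a description. Log2 fold changes on this scale understate the change of genes with low values. RNA from a whole liver cannot tell more cells of a type from more RNA per cell.

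Mmp12 (chr9:7344381-7369499), the macrophage elastase, showed the largest difference of the members tested. Its level in NC ran from 0.0341 to 0.191 FPKM with a median of 0.128. In HFD it ran from 0.515 to 4.37 with a median of 2.46, so every HFD mouse was above every NC mouse. The log2 fold change was 3.38 (SE 0.42, limma adjusted p = 2.18e-04). Mmp12 passed the filter, at a mean of 1.05 FPKM over 18 mice, only through the HFD group, and its call is read with that in mind. The fit without a filter, over 27266 genes, also called it (adjusted p = 0.00176).

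Mmp13 (chr9:7272514-7283331), the main interstitial collagenase of rodents, lies 61049 bases before Mmp12 on chromosome 9 in the same orientation. It was at 0 in 4 NC mice, and the highest NC mouse had 0.0595 FPKM. Over the whole NC group 4 fragments fell on the gene, against 221 in HFD and 44 in SZ-A. HFD mice ran from 0.101 to 1.33 FPKM with a median of 0.544, all above every NC mouse. Over 18 mice its mean of 0.270 FPKM was under the filter, and the limma fit without a filter gave a log2 fold change of 2.48 (SE 0.42, adjusted p = 0.00578). In that fit 6.96% of genes were called, and 4.10% were called higher. An exact two-sided permutation test over 924 splits gave p = 0.00216, the smallest it allows.

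Timp1 (chrX:20870166-20874735) encodes the inducible inhibitor of the family. In NC it was at 0 in 3 mice and reached 0.334 FPKM in the highest, with a median of 0.0320 and 12 fragments in the group. In an NC mouse, 3 fragments on this short gene equalled 0.167 to 0.209 FPKM, so a value of 0 allows a level up to about that. In HFD it ran from 0.426 to 2.29 FPKM with a median of 1.27 and 145 fragments. All HFD mice were above all NC mice. The limma fit without a filter gave a log2 fold change of 2.85 (SE 0.50, adjusted p = 0.00738), and the exact permutation p was again 0.00216. Timp1 made up 1.42% ± 1.99 of the summed TIMP FPKM in NC and 11.8% ± 3.73 in HFD.

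Mmp2 (chr8:92827291-92853420), gelatinase A, is a product of stellate cells and fibroblasts. NC mice ran from 0.605 to 1.10 FPKM with a median of 0.653. HFD mice ran from 0.881 to 2.99 with a median of 1.98. The groups overlapped through the highest NC mouse, NC1, and the lowest HFD mouse, HFD5. On the log2 scale Mmp2 rose by 1.33 (SE 0.25, adjusted p = 0.00235). Like Mmp12, it passed the filter only through the HFD group, and the fit without a filter also called it (adjusted p = 0.0103).

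Mmp15 (chr8:95352268-95375080) and Mmp19 (chr10:128790910-128800824) changed less in fold but from higher levels. Mmp15 ran from 2.62 to 7.13 FPKM with a median of 5.88 in NC. In HFD it ran from 8.06 to 10.1 with a median of 9.33, and the groups did not overlap. The fold change was 0.80 on the log2 scale (SE 0.20, adjusted p = 0.0117). Mmp19 ran from 7.97 to 11.2 FPKM with a median of 11.0 in NC and from 14.0 to 19.1 with a median of 16.0 in HFD, again without overlap. On the log2 scale Mmp19 rose by 0.61 (SE 0.10, adjusted p = 0.00123). Of the exonic bases of Mmp19, 22.3% are shared with Tmem198b on the opposite strand and 6.00% with Gm47093. The library kit did not mark strand, so reads from these shared bases cannot be assigned to a gene by strand. In all, 5 of the 10 members were higher in every HFD than in every NC mouse (Mmp12, Mmp13, Mmp15, Mmp19 and Timp1), beside 2.89% of the 27266 genes.

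Mmp14 (chr14:54431612-54445364), the membrane protease that activates proMMP2, went the other way. NC mice ran from 7.04 to 10.2 FPKM with a median of 9.49, and HFD mice from 3.91 to 9.62 with a median of 6.16. The groups overlapped, with HFD1 inside the NC range. Mmp14 fell by 0.57 on the log2 scale (SE 0.18, adjusted p = 0.0381). This call was lost in 13 of 25 alternatives. It was lost without any 1 of 9 mice (NC1, NC2, NC3, NC5, NC6, HFD2, HFD3, HFD5 or HFD6), at adjusted p-values from 0.0504 to 0.0782. It was also lost without a filter (adjusted p = 0.103), with sample weights (-0.43, adjusted p = 0.0650) and with the replicate number as a block (adjusted p = 0.0526). Once all mice were brought to the same FPKM sum it was lost as well (-0.38, adjusted p = 0.198), which left 4 members called, all higher. HFD libraries had lower FPKM sums, and that rescaling cancels the library size used in the FPKM. It moved the median log2 fold change of the genes above the filter from -0.03 to 0.15, a shift of 0.19.

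Mmp9 (chr2:164940780-164955850), gelatinase B, is a protease of neutrophils and macrophages. It ran from 0.126 to 0.466 FPKM with a median of 0.186 in NC and from 0.308 to 0.517 with a median of 0.360 in HFD. The groups overlapped. The log2 fold change in the limma fit without a filter was 0.61 (SE 0.23, adjusted p = 0.159), with an exact permutation p of 0.0281, unadjusted. Leaving out NC1, the highest NC mouse, gave 0.77 with an adjusted p of 0.0397.

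Timp2 (chr11:118301069-118355740) ran from 4.28 to 7.31 FPKM with a median of 4.43 in NC and from 4.49 to 8.89 with a median of 6.44 in HFD. The groups overlapped, and the log2 fold change of 0.34 (SE 0.17, adjusted p = 0.179) did not pass; its interval ran from -0.03 to 0.72. Timp3 (chr10:86300372-86349506), an inhibitor that binds to the matrix, ran from 1.40 to 3.18 FPKM with a median of 2.41 in NC and from 1.73 to 3.26 with a median of 2.63 in HFD. The difference was 0.12 on the log2 scale (95% interval -0.31 to 0.54, adjusted p = 0.708). Of the exonic bases of Timp3, 21.3% are shared with Syn3 on the opposite strand.

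**Figure D2:**
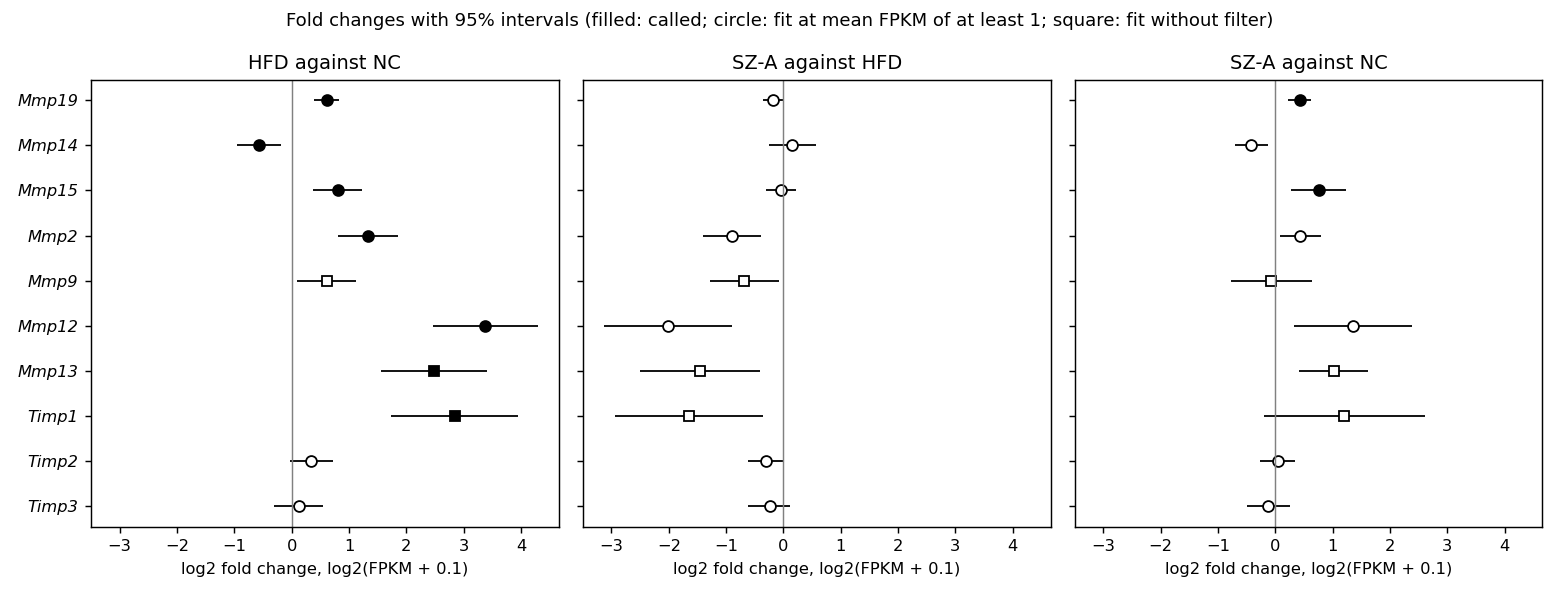
Log2 fold change of each gene on the log2(FPKM + 0.1) scale (horizontal axes) with its 95% interval in the 3 comparisons; filled points were called, circles come from the fit on genes of mean FPKM at least 1, squares (Mmp9, Mmp13, Timp1) from the fit without a filter. In HFD against NC, 7 points are filled. None is filled in SZ-A against HFD, and those of Mmp19 and Mmp15 are filled in SZ-A against NC.

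The comparison of SZ-A with HFD asks what the drug changed in mice on the diet. None of the 10 members was called by limma, neither among the 7 above the filter nor in the fit without a filter, which called 0 of 27266 genes (0%). By the same rule 0.147% of the genes above the filter were called, 15 genes in all. In the limma fit without a filter, 6 of the 10 members were lower in SZ-A at an unadjusted p under 0.05, beside 5.54% of all genes in it. The voom fit on fragment counts called none of the 10 either, with 6 lower at an unadjusted p under 0.05, beside 5.63% of all genes. The point estimate was below 0 for all members but Mmp14. This comparison shares its HFD mice with the one above.

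Mmp12 ran from 0.115 to 1.46 FPKM in SZ-A with a median of 0.474, against 0.515 to 4.37 in HFD. The groups overlapped: SZ-A2 at 1.46, SZ-A6 at 0.594 and SZ-A5 at 0.561 lay above HFD5 at 0.515. The log2 fold change of SZ-A against HFD was -2.01 (SE 0.52, adjusted p = 0.109). Mmp2 ran from 0.736 to 1.09 FPKM in SZ-A with a median of 1.05, and HFD5 at 0.881 was the sole HFD mouse inside that range. Its log2 fold change was -0.90 (SE 0.23, adjusted p = 0.109).

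Mouse HFD5, the lowest HFD mouse for both genes, decided whether they were called. Without it, Mmp2 had a log2 fold change of -1.11 (adjusted p = 0.0230) and Mmp12 of -2.38 (adjusted p = 0.0437), and both were called. Giving each mouse a weight estimated from its own spread had the same effect, with -0.99 (adjusted p = 0.0272) for Mmp2 and -2.29 (adjusted p = 0.0281) for Mmp12. Both genes passed the filter only through the HFD group, and leaving out its lowest mouse widens the difference. These calls are therefore a description. With all mice, the limma fit without a filter gave adjusted p-values of 0.231 for Mmp2 and 0.238 for Mmp12.

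Timp1 ran from 0 to 0.851 FPKM in SZ-A with a median of 0.413 and 42 fragments, and it was at 0 in SZ-A4. Its log2 fold change against HFD in the fit without a filter was -1.64 (SE 0.58, adjusted p = 0.356), and the exact permutation p was 0.0216, unadjusted. Mmp13 ran from 0.0207 to 0.377 FPKM with a median of 0.115, and its highest SZ-A mouse was again SZ-A2. Its log2 fold change was -1.46 (SE 0.48, adjusted p = 0.308, exact permutation p = 0.0281). Mmp9 ran from 0.0467 to 0.404 FPKM with a median of 0.246 and overlapped the HFD group. On the log2 scale the difference was -0.68 (SE 0.28, adjusted p = 0.439, exact permutation p = 0.0238). Permutation tests were run 30 times, 9 of them on these 3 genes, and are not adjusted.

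The more abundant members differed little between SZ-A and HFD. Mmp19 ran from 12.8 to 15.5 FPKM in SZ-A with a median of 14.1 and a log2 fold change of -0.18 (SE 0.08, adjusted p = 0.335). Mmp15 ran from 6.75 to 11.7 with a median of 9.13. The log2 fold change was -0.05, with a 95% interval of -0.31 to 0.22. Mmp14 ran from 5.01 to 8.63 with a median of 6.77 and a log2 fold change of 0.15 (95% interval -0.26 to 0.56); with FPKM rescaled to a common sum it was -0.02. All 3 genes overlapped between the groups.

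Timp2 ran from 4.61 to 6.08 FPKM in SZ-A with a median of 5.05, inside the HFD range. Its log2 fold change was -0.30 (95% interval -0.62 to 0.01, adjusted p = 0.357). Timp3 ran from 1.62 to 2.88 with a median of 2.10 and a log2 fold change of -0.24 (95% interval -0.61 to 0.12, adjusted p = 0.542).

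The comparison of SZ-A with NC asks how far treated livers stood from chow livers. Mmp19 and Mmp15 were called higher in SZ-A, 2 of the 7 members tested, while 9.60% of all genes tested were called, and 5.31% were called higher. Mmp19 did not overlap between the groups, with the lowest SZ-A mouse at 12.8 FPKM and the highest NC mouse at 11.2. It was higher by 0.43 on the log2 scale (SE 0.09, adjusted p = 0.0113). It was the sole member without overlap here, beside 2.83% of genes above the filter that were higher without overlap. For Mmp15 the SZ-A mice lay between 6.75 and 11.7 FPKM, and a single NC mouse, NC4 at 7.13, lay inside that range. The log2 fold change was 0.76 (SE 0.22, adjusted p = 0.0473). This call was lost in 11 of 25 alternatives. It was lost without any 1 of 7 mice (NC1, NC2, NC3, SZ-A1, SZ-A2, SZ-A3 or SZ-A6), at adjusted p-values from 0.0555 to 0.102. It was also lost in the limma fit without a filter (adjusted p = 0.146).

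The genes with the largest rise in HFD did not pass against NC in SZ-A livers. Mmp12 had a log2 fold change of 1.36 (SE 0.48, adjusted p = 0.0900) and Mmp2 of 0.44 (SE 0.16, adjusted p = 0.112). In the fit without a filter, Mmp13 had 1.02 (SE 0.27, adjusted p = 0.0910), and Timp1 had an interval of -0.20 to 2.61 (adjusted p = 0.453). Mmp13 was called by voom on fragment counts (2.85, adjusted p = 0.0311). Mmp14 had -0.42 (SE 0.13, adjusted p = 0.0626). Among the alternatives, Mmp2 and Mmp12 gained the call in 1 of 24 each, Mmp13 in 2 of 23 and Mmp14 in 3 of 25. The intervals of Timp2 (-0.26 to 0.35), Timp3 (-0.50 to 0.25) and Mmp9 (-0.77 to 0.64) lay on both sides of 0. For 8 members the SZ-A mean lay between the NC and HFD means, with Mmp9 and Timp3 outside, where SZ-A was the lowest group. The 3 comparisons share their groups, so these positions do not add support to each other.

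**Figure D3:**
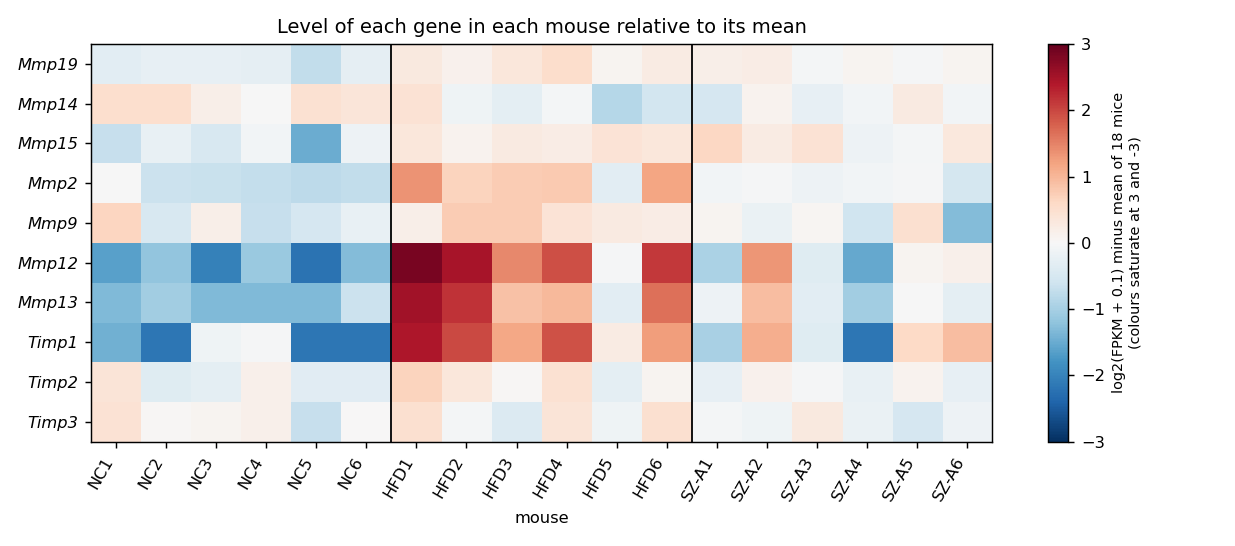
Level of each gene in each mouse as log2(FPKM + 0.1) minus that gene's mean over the 18 mice (red higher, blue lower, saturating at 3 and -3), with mice in columns by group. Mmp12, Mmp13 and Timp1 are red in 5 of the 6 HFD columns and paler in HFD5, and among SZ-A columns SZ-A2 is the reddest for these genes.

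Within the HFD group, the members that rose most shared their highest and lowest mice. In HFD1 Mmp12 stood at 4.37 FPKM, Mmp13 at 1.33, Timp1 at 2.29 and Mmp2 at 2.99, each the highest of its group. In HFD5 the same genes stood at 0.515, 0.101, 0.426 and 0.881, each the lowest. Over all 18 mice, the gene most like Mmp13 in Pearson correlation of log2(FPKM + 0.1) was Mmp12 (r = 0.97), followed by Clec7a, a macrophage receptor for fungal glucans (0.94), and Tagln2 (0.94). Mmp12 was closest to the collagen gene Col1a2, to Lgals3, which encodes galectin-3, and to Sparc, which encodes a matrix-binding glycoprotein, each at 0.96. Timp1 was closest to Sparc (0.93), Capg (0.91) and Anxa2 (0.91), and Mmp2 to Ccdc80 (0.93), Islr (0.92) and Col1a2 (0.91). All 18 points share the 3 groups and low fragment counts in NC, so these values describe the table and carry no test.

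The other members had different neighbours by the same measure. Mmp15 was closest to Akr1c6, Klhdc7a and Hsd3b3 (0.93 each), where Akr1c6 and Hsd3b3 encode steroid-metabolizing enzymes. Mmp19 was closest to Pcyox1, AI464131 and Siae (0.92 each). Timp2 was closest to Fbln5 (0.90), a gene of elastic fibres, to Anxa1 (0.89) and to Myo9b (0.87). Mmp14 (Bpgm, Spg21 and Trip6, 0.84 to 0.82), Timp3 (Dst and Mlxip, 0.85 and 0.83) and Mmp9 (Cav2, Gla and Ly6a, 0.81 to 0.79) had no neighbour above 0.85.

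Markers of the cells that could carry these transcripts differed between the groups, but not all in the same way. Recruited or lipid-associated macrophage markers, 8 genes, had sums of 55.1 to 90.9 FPKM in NC mice. HFD mice had 117 to 169, and SZ-A mice 68.6 to 127. This sum was mostly Lyz2, at 114 ± 13.7 FPKM in HFD, where the sum had a mean of 140, and at 56.3 ± 15.4 in NC. All 8 genes were detected. Of these, 3 were above the filter and 2 of those rose in HFD against NC, beside 10.7% of all genes tested. Cd9, the other of the 3, was not higher in HFD (5.81 FPKM against 7.21 in NC). Lyz2 and Cd9 were named after their values were seen. In SZ-A against HFD 1 of the 3 was called lower, beside 0.0685% of all genes tested. This was Cd68, a lysosomal protein of macrophages, named after its value was seen (log2 fold change -0.64, limma adjusted p = 0.0451). The SZ-A mouse at 127 was SZ-A5, and the next stood at 90.3. HFD1 had the highest sum of the HFD mice and HFD5, at 133, stood in the middle of them.

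Myofibroblast markers, 6 genes, had sums of 2.82 to 8.73 FPKM in NC mice, 4.27 to 15.2 in HFD mice and 2.60 to 10.9 in SZ-A mice. The highest SZ-A mouse was again SZ-A5, and the next stood at 5.09. HFD5 was the lowest and HFD1 the highest HFD mouse for this sum, as for Mmp2, Mmp12, Mmp13 and Timp1. The sums of the cathepsins below and of the other Mmp genes with Timp4 had the same lowest and highest HFD mice. HFD5 was also the lowest HFD mouse for the neutrophil, cholangiocyte and mesothelial marker sums. It was the highest for the hepatocyte, Kupffer cell and liver endothelial marker sums. Of the 3 myofibroblast genes above the filter 2 rose in HFD against NC and none was called in SZ-A against HFD. Acta2, the other of the 3, was not higher in HFD (1.63 FPKM against 2.56 in NC, limma adjusted p = 0.721). Col1a1, also a matrix substrate gene below, had a mean of 5.52 FPKM in HFD, where the myofibroblast sum had a mean of 9.46. Both genes were named here after their values were seen. None of the 6 was at 0 in all mice, and 1, Cthrc1, had a mean under 0.1 FPKM. Kupffer cell markers, 8 genes, had sums of 163 to 284 FPKM in NC mice, 235 to 438 in HFD mice and 254 to 343 in SZ-A mice, and 4 of the 8 rose in HFD. Stellate cell markers, 8 genes, had 72.0 to 99.4 in NC mice, 94.0 to 129 in HFD mice and 90.9 to 128 in SZ-A mice. Their median sums were 92.0, 106 and 120 in NC, HFD and SZ-A, so this sum was not lower in SZ-A than in HFD. Of the 8 stellate genes, 5 rose in HFD. Among all genes tested in HFD against NC, 10.7% were called higher. Liver endothelial markers, 8 genes, had median sums of 74.1, 80.2 and 74.7 FPKM in NC, HFD and SZ-A.

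Neutrophil markers, 8 genes, had sums of 1.51 to 6.90 FPKM in NC mice, 6.04 to 20.7 in HFD mice and 4.84 to 18.4 in SZ-A mice. The highest SZ-A mouse was SZ-A5 here too, and the next stood at 9.35. Of their 3 genes above the filter 2 rose in HFD, beside 10.7% of all genes tested. Ly6g, Ngp and Camp had means under 0.1 FPKM. Adipocyte markers, 5 genes, had 1.49 to 8.64 in NC mice, 24.0 to 138 in HFD mice and 2.62 to 33.6 in SZ-A mice, with Plin1 and Lep under 0.1 FPKM. This sum was nearly all Cfd, which encodes adipsin, at 52.4 ± 43.6 FPKM in HFD and 2.91 ± 2.67 in NC. Cfd and Fabp4, the 2 adipocyte markers above the filter, both rose in HFD, beside 10.7% of all genes tested. Fabp4 stood at 1.40 ± 0.246 FPKM in NC and 3.08 ± 1.18 in HFD. Adipoq, which encodes adiponectin, was not higher in HFD (0.0913 against 0.202 in NC), nor was Plin1 (0.0126 against 0.0742). These adipocyte markers were named after their values were seen. Hepatocyte markers had a median sum of 42046 FPKM in NC mice, 29626 in HFD mice and 32092 in SZ-A mice. Of these 8 genes 4 fell in HFD, beside 9.49% of all genes tested. The part of any of these cell types in the changes of the proteases and TIMPs was not tested.

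The remaining members of the family were close to silent. Of 16 other Mmp genes and Timp4, 10 had a mean under 0.1 FPKM and none reached the filter. Mmp1a, Mmp1b and Mmp20 were at 0 in all 18 mice. Mmp7, matrilysin, had the highest mean of these, 0.683 FPKM, carried by a single SZ-A mouse.

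Regulators, related proteases and substrates were taken as lists. Of 23 matrix substrate genes tested in HFD against NC, 12 were called higher and 0 lower. Their median log2 fold change was 0.68, against -0.03 over all genes tested. Among all genes tested in this comparison, 10.7% were called higher and 9.49% lower. The same shares stand beside the HFD counts of the other lists below. The fibrillar collagen genes led. Col3a1 stood at 1.29 ± 0.510 FPKM in NC and 8.96 ± 3.72 in HFD (log2 fold change 2.69, adjusted p = 4.87e-04). Col1a1 stood at 0.796 ± 0.318 and 5.52 ± 2.81 (2.53, adjusted p = 6.65e-04), and Col1a2 at 0.709 ± 0.180 and 3.20 ± 1.51 (1.91, adjusted p = 0.00116). Col1a2, at 1.18 FPKM in SZ-A, and some other listed genes reached the filter only because HFD livers were high. The list counts are therefore a description.

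Of 19 activators, inhibitors and binding partners tested, 7 were higher and 2 lower in HFD, with a median of 0.13. Lcn2, whose product lipocalin-2 binds MMP9, was at 2.24 ± 1.87 FPKM in NC and 54.6 ± 57.7 in HFD, a log2 fold change of 4.34 (adjusted p = 2.53e-04). Cd63, a tetraspanin that binds TIMP1, went from 1.33 ± 0.270 to 4.01 ± 2.30 (1.37, adjusted p = 0.00740).

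Of 16 transcription factors and cytokines tested, 5 were higher and 0 lower, with a median of 0.23. Jun, a subunit of AP-1, rose from 7.51 ± 1.92 to 16.6 ± 3.53 FPKM (1.14, adjusted p = 7.70e-04), and Junb from 10.2 ± 3.18 to 17.4 ± 4.59 (0.78, adjusted p = 0.0185). Csf1, the macrophage growth factor, rose from 1.58 ± 0.300 to 2.58 ± 0.358 (0.68, adjusted p = 0.00326). No link between Jun and the AP-1 letters printed above was tested.

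Of 7 ADAM and ADAMTS proteases tested, 3 were higher in HFD (Adam11, Adamts13 and Adam10) and 0 lower, with a median of 0.30. Among 7 cathepsins tested, lysosomal proteases that can also cut matrix, Ctss and Ctsb rose and Ctsl fell, with a median of 0.21. Ctss rose from 25.7 ± 3.16 to 42.3 ± 6.20 FPKM (0.71, adjusted p = 8.36e-04), Ctsb from 79.8 ± 9.46 to 125 ± 13.6 (0.65, adjusted p = 6.86e-04), and Ctsl went from 134 ± 34.4 to 84.2 ± 10.2 (-0.65, adjusted p = 0.00891).

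In SZ-A against HFD no gene of these lists was called. The matrix substrates had the lowest median log2 fold change, -0.55, against 0.03 over all genes tested, and 20 of 23 estimates were below 0. In either direction, 16 of the 23 had an unadjusted limma p under 0.05, as did 14.8% of all genes tested (8.74% higher and 6.09% lower). Col18a1 (0.21) and Vtn (0.27) were among these 16 and were higher in SZ-A. The medians of the other 4 lists lay between -0.15 and -0.05. Their counts at an unadjusted limma p under 0.05 were also of either direction. They were 1 of 7 ADAM and ADAMTS genes and 9 of 19 activators and partners. Of 7 cathepsins there were 3, and of 16 transcription factors and cytokines 2. Among the 9 activators and partners, Furin, Plg, Serpine2, Serpinf2 and Klkb1 were higher in SZ-A, and Pcsk6, Plau, Cd44 and Cd63 lower. The genes named for these counts were chosen after their values were seen.

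In SZ-A against NC, Col3a1 (1.29 ± 0.510 FPKM in NC and 3.01 ± 1.21 in SZ-A, adjusted p = 0.0398) and the proteoglycan gene Lum (0.59, adjusted p = 0.0271) were the 2 matrix substrates called of 23, both higher. Lcn2 (3.22, adjusted p = 0.0172) and Plg, which encodes plasminogen (0.30, adjusted p = 0.0464), were higher and Sdc1, a heparan sulfate proteoglycan of the cell surface (-0.54, adjusted p = 0.00470), lower among 19 activators and partners. Adam11 (1.22, adjusted p = 0.00695) and Adamts13 (0.47, adjusted p = 0.0228), the protease of von Willebrand factor, were higher among 7. Ctsb was higher (0.39, adjusted p = 0.0105) and Ctsl lower (-0.58, adjusted p = 0.0491) among 7 cathepsins. Csf1 was higher (0.46, adjusted p = 0.0471) and Ctgf, a matricellular growth factor, lower (-1.24, adjusted p = 0.0190) among 16. Among all genes tested in SZ-A against NC, 5.31% were called higher and 4.30% lower.

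**Figure D4:**
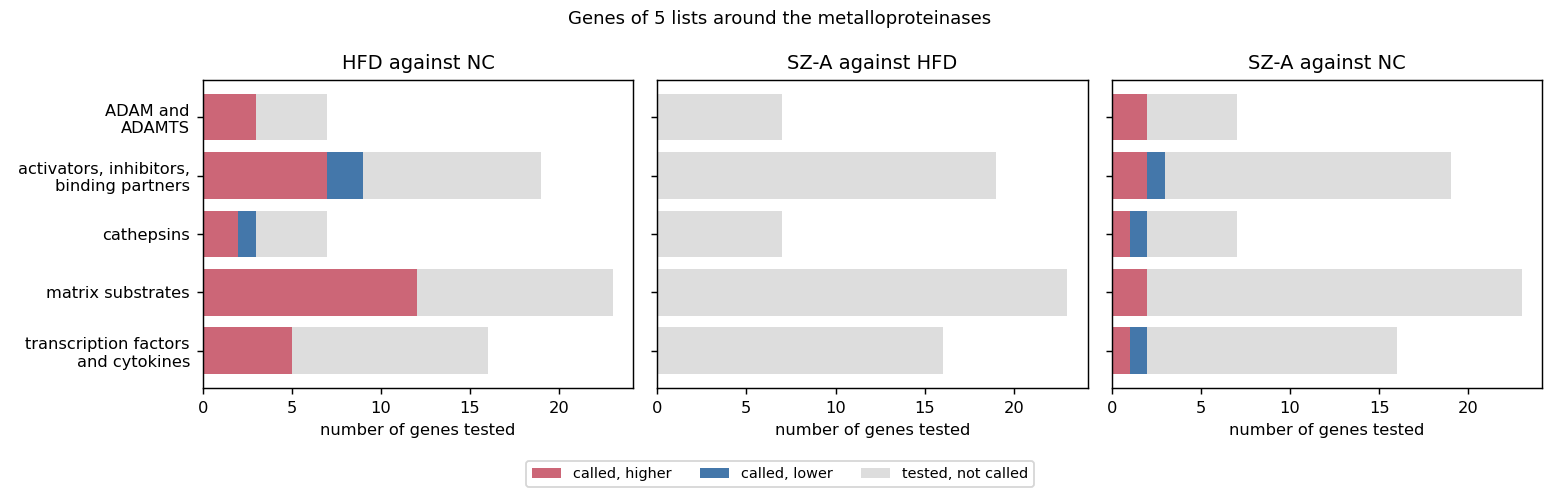
Number of genes tested in each of 5 lists (bar length) that were called higher (red), called lower (blue) or not called (grey) in the 3 comparisons. In HFD against NC the matrix substrates have 12 of 23 called higher, and in SZ-A against HFD every bar is grey.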

How the data were processed

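Liver RNA of 18 mice was sequenced as 150 bp paired reads after poly-A selection with a kit that does not mark strand. The authors aligned reads to GRCm38 with HISAT2 2.0.5, counted them with featureCounts 1.5.0-p3 and deposited FPKM per gene. Multiplying FPKM by gene length and by a library size found for each mouse returned whole fragments for 100% of values (tolerance 0.05), which gave the depth of each mouse. Coordinates of the members were the same in GENCODE vM21.

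Groups were compared in pairs, each fitted on its own 12 mice, with limma 3.58.1 in R 4.3.3 (trend on) on log2(FPKM + 0.1). Members under a mean of 1 FPKM were taken from the same fit without a filter and an exact permutation test (scipy 1.17.1). The code was tested on simulated data. Alternatives were the pseudocount (0.01 and 1), the filter (none, 0.1 and 5), a common FPKM sum, sample weights, no trend, voom on whole fragments, the replicate number as a block and leaving out each mouse. Replicate numbers did not pair mice: correlations of same-numbered deviations ran from -0.12 to 0.29.

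The members and the gene lists were chosen with earlier results of these data known. All 10 members are named; for each, the 3 genes of mean FPKM at least 1 most correlated with it; of each list, at most the 3 called genes with the largest change per comparison; and of cell type markers, the summed level and members at or near 0. Of the genes this rule names, 2 are not reported here. The 95% intervals are limma's and rest on the spread between mice; floors (3 fragments) cover counting error only. Fragments without molecular identifiers are not independent molecules. Mean ± SD is over 6 mice.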

Additional observations from a re-analysis of the deposited data

Results flagged for a closer look

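In 30 sets of 6 values (10 genes in 3 groups), 6 values, from 5 mice, lay far from the rest of their group by Dixon's ratio of gap to range, and chance marks about 1 in 20 sets. Mmp2 stood at 1.10 FPKM in NC1, against 0.605 to 0.681 in the other NC mice. Mmp2 stood at 0.736 in SZ-A6, against 0.991 to 1.09 in the other SZ-A mice. SZ-A2 was marked for Mmp12, at 1.46 FPKM against 0.115 to 0.594, and for Mmp13, at 0.377 against 0.0207 to 0.150. Mmp13 stood at 0.0595 in NC6, which was 3 fragments, against 0 to 0.0215 in the other NC mice. Mmp19 stood at 7.97 in NC5, against 10.6 to 11.2 in the other NC mice. HFD5, on which the calls of Mmp2 and Mmp12 in SZ-A against HFD turned, was not marked for any gene.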

How the results depend on the processing

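Over 30 fold changes (10 genes, 3 comparisons), 676 of 723 alternative values kept direction and side of the threshold, 24 lost the call, 13 gained it and 10 changed sign. The cause of each change was not tested, apart from the smaller number of members or mice some alternatives hold. In HFD against NC, 5 members were called. A mean FPKM of at least 5 left 4 members to test and 3 called, and leaving out a mouse gave 4 to 5. Fits at that filter could not be made for Mmp2, Mmp9, Mmp12, Mmp13, Timp1 and Timp3. In SZ-A against HFD the count of 0 became 2 with sample weights, and leaving out a mouse gave 0 to 2. In SZ-A against NC the count of 2 became 1 without a filter, with a filter of 0.1, with a common FPKM sum and without trend. In these Mmp15 lost the call. Leaving out a mouse gave 1 to 3. With the replicate number as a block the counts were 5 in HFD against NC, where Timp2 gained the call (adjusted p = 0.0440) and Mmp14 lost it (adjusted p = 0.0526), 0 in SZ-A against HFD and 2 in SZ-A against NC. Of 18 mice, 5 correlated best with their own number, so the block rests on a number only.

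Signs changed only in fold changes that were not called. In HFD against NC, Timp3 was -0.02 without NC5 and at most 0.22 with another mouse left out. In SZ-A against HFD, Mmp14 was -0.02 with a common sum, and Mmp15 was 0.03 with sample weights, 0.03 without SZ-A4, 0.01 without SZ-A5 and at the lowest -0.13 without SZ-A1. In SZ-A against NC, Mmp9 was 0.10, 3.01e-04 and 0.14 without NC1, NC3 and SZ-A6, and at the lowest -0.21 without SZ-A5. Timp2 was -0.00297 and -6.59e-04 without NC2 and SZ-A2, and at most 0.15 without NC1. Depth limits Mmp13 and Timp1 most, with 4 and 12 fragments in the NC group.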

Other observations

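Mmp7, a protease of bile duct and other epithelia, was high in a single SZ-A liver. SZ-A5 had 8.89 FPKM, while the next SZ-A mouse had 0.207, and NC and HFD mice reached 0.694 and 0.266. Cholangiocyte markers, 6 genes, summed to 19.1 FPKM in SZ-A5, and the group medians were 4.52 (NC), 3.34 (HFD) and 2.80 (SZ-A). Krt19, a keratin of bile ducts, was at 8.45 FPKM in that mouse and at most 0.413 in the other SZ-A mice. These genes were chosen after their values were seen.

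Mmp23 had a mean under 1 FPKM over the 18 mice and stood at 0.323 ± 0.157 FPKM in NC mice, 0.710 ± 0.286 in HFD mice and 0.523 ± 0.123 in SZ-A mice (SD, n = 6). Mmp3, stromelysin-1, stood at 0.302 ± 0.348 in NC mice, 0.0503 ± 0.0395 in HFD mice and 0.0461 ± 0.0330 in SZ-A mice, and NC1 with 0.852 was its highest mouse. No test was made of either gene, and both were chosen after their values were seen.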
